A study of Mus musculus with 8 samples.

Results

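The 4 wild type libraries of this mouse RNA-seq study hold RNA of Math1-lineage cells from the cochlear nucleus at embryonic day E18.5. They were taken by their label, as every wild type library among the 8 in all, and the other 4, which carry floxed Hox alleles, were not used for any value. The embryos carried Math1::Cre and a Rosa tdTomato reporter on a C57BL/6 background, with no floxed Hox allele named in the wild type labels. Cre under the control of Math1, now named Atoh1, marks cells that have expressed Atoh1 and their descendants, so the sort collects a lineage of mixed ages rather than a single neuron type. Cochlear nuclei were dissected by hand, treated with trypsin, and sorted by fluorescence to 30000 cells per sample. Each sample pooled 3 littermate embryos, and each came from a different mother, so the 4 libraries are biologically separate pools. The tdTomato transcript was not analysed here.

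The cochlear nucleus is the first hindbrain relay of the auditory pathway. Atoh1 is the basic helix-loop-helix factor of the rhombic lip, the dorsal edge of the hindbrain from which glutamatergic neurons of the cochlear nucleus and the granule cells of the region arise. Inhibitory neurons of the same nucleus come from a neighbouring progenitor domain that uses Ptf1a. Barhl1, Nhlh1 and Slc17a6, which encodes the vesicular glutamate transporter VGLUT2, are known markers of Atoh1-derived neurons.

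Levels are given as read counts scaled by the library total (CPM) and by gene length in kilobases, written as units. Values in a row of 4 are always those of wild type 5, 6, 7 and 8, the numbers in the column headings, and an SD covers these 4 libraries (n = 4). The length is the one deposited with the counts, which equalled the summed exons of GENCODE M21 for 64.9% of genes. With the M21 length, 28 of 180 genes named here moved by over 1.5 times, and comparisons between genes that rest on these carry the second value as the M21 level. Comparisons of a gene between libraries do not depend on its length. Total counts were 37057679, 24789043, 34775363 and 40050010. In all 4 libraries, 13725 of 39017 genes (35.2%) reached 1 unit, 4789 reached 10 units and 264 reached 100 units. Among 21226 protein-coding genes, 10613 (50%) reached 1 unit in all 4, the share to set beside the counts of list members given further on. Mitochondrially encoded genes took from 10.4% in wild type 8 to 13.4% in wild type 6 of the counts, and Gm42418, a locus that overlaps ribosomal RNA sequence, took 9.30%, 11.5%, 10.2% and 12.5%. The 10 genes with the highest mean share took 22.5% ± 1.42 of the counts.

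All 4 marker genes of the lineage were high in every library. Barhl1, a homeobox factor of rhombic lip derivatives, measured 142, 136, 139 and 128 units with a coefficient of variation of 4.48%. Slc17a6 measured 154, 120.2, 145 and 154 units, lowest in wild type 6. Nhlh1, a helix-loop-helix factor of newborn neurons, measured 39.9, 39.2, 33.3 and 35.3 units. Atoh1 itself measured 44.8, 76.5, 27.7 and 28.0 units and was the least even of the 4. Its level in wild type 6 was 2.77 times that in wild type 7, and exact 95% Clopper-Pearson intervals of those libraries, 74.2 to 79.0 and 26.5 to 28.9 units, lay far apart. These intervals cover counting error only. By mean level, Barhl1 stood above 99.4% and Atoh1 above 97.0% of the 32034 genes at least 300 bases long. The gene bodies lie on mm10 at chr2:28907679-28916668 for Barhl1, chr6:64729125-64731245 for Atoh1, chr1:172052292-172057573 for Nhlh1 and chr7:51622006-51671119 for Slc17a6.

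Cytoskeletal genes of growing neurons were among the most abundant transcripts apart from those of mitochondria and Gm42418. Nnat, an imprinted gene for the small membrane protein neuronatin, led the genes with a settled symbol at 2675, 1534, 3879 and 3874 units. It was lowest in wild type 6, and wild type 7 and 8 stood together at the top. Actb, which encodes cytoplasmic actin, measured 1074, 934, 1030.1 and 1234 units. Tuba1a, the alpha-tubulin of young neurons, measured 701, 863, 882 and 970.3 units. Tmsb4x, which binds free actin, averaged 794 ± 62.5 units, and Nrep, a gene active in neural development, averaged 777 ± 178 units, with an M21 level of 499.7. The microtubule destabilisers Stmn2 and Stmn1 averaged 492 ± 106 and 479.8 ± 70.0 units, and the M21 level of Stmn2 was 167. All 20 members of the young neuron list passed 1 unit in every library. Among them, Dcx, a microtubule protein of migrating neurons, measured 112, 127, 178 and 159.9 units. Gap43, a growth cone protein, measured 105, 226, 127 and 167 units and was lowest in wild type 5. The neuronal RNA-binding genes Elavl3 and Elavl4 varied less, at 131, 126, 133 and 142 units and 78.4, 75.4, 78.7 and 78.0 units.

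Mature neuron genes were present at lower levels, with 12 of 15 members at or above 1 unit in every library. Uchl1, a neuronal deubiquitinase, led at 217, 199, 269 and 231 units. Map2, a dendritic microtubule protein, measured 60.8, 61.7, 93.4 and 81.2 units. The neurofilament gene Nefl averaged 35.9 ± 13.1 units, and Rbfox3, which encodes the NeuN antigen, measured 18.55, 17.9, 18.6 and 18.1 units with hardly any spread. Synaptic vesicle genes passed 1 unit in 18 of 20 cases, led by Syt11 at 53.8 ± 1.98 units and Sv2b at 51.0 ± 7.37 units.

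Of the 30 genes with the highest mean level apart from mitochondrial genes, 10 had a provisional name or no symbol, and 6 were annotated pseudogenes. Such copies share sequence with active genes, so a read from a shared stretch can be counted under either copy or under neither. Gapdh, a glycolytic enzyme gene with many processed copies in the mouse genome, measured only 3.04, 2.63, 1.64 and 1.24 units. Aldoa, which acts earlier in the same pathway, measured 90.9, 71.2, 91.4 and 110.5 units, and Eef1a1, a translation factor gene, measured 627, 643, 532 and 725 units. The M21 level of Gapdh was 1.32. The counting method is not given in the sources used here, so levels of such multi-copy genes are uncertain. The part of the copies in the low Gapdh level was not tested. Among mitochondrial messenger genes, mt-Co1, a cytochrome oxidase subunit, was highest at 6355 ± 431 units.

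Neurod1 and Zic1 led the transcription factors. Of 540 factors listed and present in the table, 289 (53.5%) reached 1 unit in every library, near the 50% of all protein-coding genes. Neurod1, a differentiation factor of many neurons including granule cells, was the highest at 696, 622, 611 and 601 units. Zic1, a zinc finger factor of the dorsal hindbrain, followed at 426, 397, 565 and 467 units, with its relatives Zic2 at 153, 140.0, 169 and 150.0 and Zic5 at 113 ± 14.6 units. Zic1 and Zic4 overlap on opposite strands, and the strand of the libraries is not stated, so reads of the shared part cannot be told apart. Sox4, a factor of newly formed neurons, measured 252, 221, 277 and 279 units. It overlaps the annotated gene Gm26735, which averaged 368 ± 43.6 units, so the level and rank of Sox4 are uncertain in the same way.

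Otx2 held rank 4 at 250.3, 179, 145 and 170.1 units and was highest in wild type 5. Its M21 level was 149.8 units, below that of Zic2 at 152.9, so this rank depends on the length used. Otx2 is best known for patterning the forebrain and midbrain, is also used in later rhombic lip derivatives, and shares its locus with the antisense gene Otx2os1. Eomes, also named Tbr2 and known from unipolar brush cells, measured 150.4, 76.8, 118 and 127 units. Wild type 6 was low for Eomes and the other 3 libraries lay apart from it. Nuclear factor I genes, which act in granule neuron maturation, were even across libraries, with Nfib at 130.2 ± 7.92, Nfix at 117 ± 12.4 and Nfia at 104 ± 7.27 units. The remaining factors of the 30 ran from Atf4 at 168 ± 18.1 to Meis1 at 54.1 ± 5.13 units. Within families, Barhl1 exceeded Barhl2 by 3.17 ± 0.44 times, and Nhlh2 exceeded Nhlh1 by 1.73 ± 0.13 times. With M21 lengths the ratio of Nhlh2 to Nhlh1 was 1.07 ± 0.08, so which of these is more abundant depends on the length used.

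**Figure D1:**
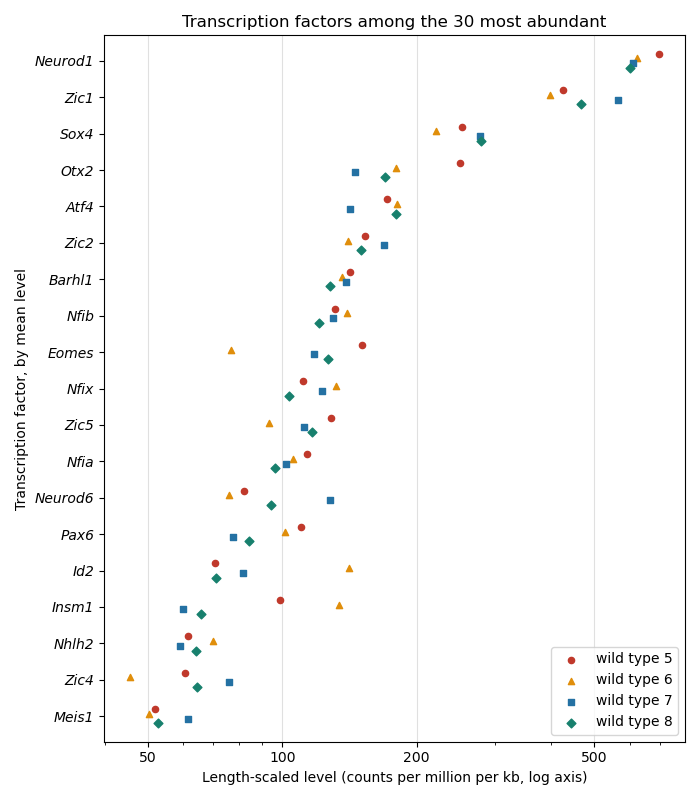
Length-scaled level (log axis) of the transcription factors named in the text among the 30 with the highest mean, with 1 point per wild type library. Neurod1 and Zic1 stand above all others, most factors have closely spaced points, and wild type 6 lies low for Eomes and high for Id2.

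Factors of progenitors and newborn neurons differed in how even they were between libraries. The ratio of the highest to the lowest library was 1.20 for Nhlh1 and 1.26 for Sox4, against a median of 1.33 over all detected genes. It was 1.42 for Pax6, 2.23 for Insm1 and 2.44 for Olig3. Insm1, a zinc finger factor of newborn neurons, measured 98.9, 134, 59.9 and 65.6 units. Pax6, a rhombic lip and granule lineage factor, measured 110.0, 102, 77.4 and 84.2 units. Olig3, a factor of rhombic lip progenitors, measured 30.1, 34.4, 14.1 and 20.2 units. Wild type 7 was the lowest library in 33.2% of the 289 detected transcription factors. It was the lowest in each of these 3 genes and in Nhlh1, while Sox4 was lowest in wild type 6. Neurod6, a related differentiation factor, measured 82.1, 76.0, 128 and 94.2 units with its peak in wild type 7. Of the 27 factors listed for the Atoh1 lineage, 21 passed 1 unit in every library. The 6 that did not were Lhx9, Lhx2, Pou4f1, Lmx1b, Evx2 and Tlx3. Lhx2 and Lhx9 are known from other Atoh1 neurons of the hindbrain and spinal cord. Lhx2 measured 0.473, 1.39, 1.05 and 0.580 units and Lhx9 measured 1.49, 0.853, 0.950 and 0.935 units.

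Of the Hox genes, which give each hindbrain segment its identity, Hoxa2 and Hoxb2 were the highest. These are the genes that carry floxed alleles in the other samples of the study. Hoxa2 measured 13.3, 23.6, 20.4 and 15.4 units. Hoxb2 measured 11.3, 13.8, 10.8 and 11.0 units. Hoxb3 at 4.69, 8.33, 4.90 and 3.57 and Hoxa3 at 3.11, 6.35, 4.43 and 2.97 units were the only other members of 20 that passed 1 unit in every library. Hoxb2, Hoxb3 and Hoxa3, and Hoxb5 given further on, each overlap an antisense gene, so their values may include its reads. Hoxb1, a marker of the fourth rhombomere at earlier stages, lay at 0.0814, 0.208, 0.0495 and 0.0860 units from 7, 12, 4 and 8 reads. Wild type 6 was the highest library for all 4 Hox genes that passed, against 27.3% of the 13725 detected genes. It was also highest for 13 of the 16 Hox genes below the limit (81.2%), but genes below the limit were often highest there, in 45.4% of 19921 with a count. Among these, Hoxa4 was at 0.728, 2.99, 1.10 and 0.689 units, and Hoxb5 was at 0.240, 1.56, 0.522 and 0.0355 units. The expression of both starts farther back in the hindbrain.

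Of 18 anterior patterning genes, Otx2 and 3 Irx genes passed 1 unit in every library, and the others lay under 1 unit in all 4. Irx2 averaged 6.78 ± 1.96 units, while En2, a midbrain and cerebellar factor, measured 0.942, 0.850, 0.819 and 0.331 units. En1 measured 0.0275, 0.0822, 0.0293 and 0.0509 units, and Emx1 was at 0 in wild type 6 and 8.

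The cells had a glutamatergic transmitter profile. Slc17a6 exceeded Slc17a7, which encodes VGLUT1, by 21.1 ± 4.58 times, or 31.0 ± 6.72 times with M21 lengths. Slc17a7 measured 5.67, 5.48, 8.54 and 8.40 units and Slc17a8, which encodes VGLUT3, measured 0.520, 0.462, 0.500 and 0.317 units. Slc38a2 and Slc38a1, amino acid transporters that carry glutamine, averaged 98.5 ± 13.7 and 35.1 ± 1.90 units, with M21 levels of 51.5 and 17.1.

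Of 8 listed genes of GABA and glycine transmission, 4 (50%) passed 1 unit in every library, the same share as over all protein-coding genes. Slc32a1, the vesicular transporter that loads both GABA and glycine, lay below 1 unit at 0.212, 0.404, 0.586 and 0.946 units. It overlaps the annotated gene Gm14205, so its reads, and ratios that rest on them, may include or miss shared reads. These levels rest on 22, 28, 57 and 106 reads, with exact 95% intervals of 0.133 to 0.321 units in wild type 5 and 0.775 to 1.14 units in wild type 8. The intervals of these libraries do not overlap. The sum of the 3 vesicular glutamate transporters exceeded Slc32a1 by 756, 312, 264 and 172 times. The mean ratio was 376 ± 260, and without wild type 5 it was 249. Gad1 and Gad2, which make GABA, measured 0.770, 1.22, 1.53 and 2.46 and 0.533, 1.28, 1.97 and 1.84 units. Slc6a5, the glycine transporter of glycinergic neurons, measured 3.21, 1.29, 2.56 and 3.00 units, lowest in wild type 6. Wild type 5 had the lowest Slc32a1, Gad1 and Gad2 but the highest Slc6a5.

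Inhibitory transcription factors were mostly under 1 unit, and 2 of 17 passed it in every library, Lhx1 among them. Ptf1a, the factor that specifies inhibitory cochlear nucleus neurons, measured 0.0358, 0.294, 0.439 and 0.166 units, and overlaps the annotated gene Ptf1aos. Lhx1 measured 8.07, 15.5, 8.38 and 7.97 units. Lbx1, a factor of dorsal inhibitory neurons, measured 0.218, 0.391, 0.383 and 0.403 units. Bulk libraries cannot tell fewer cells of a type from less RNA per cell.

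**Figure D2:**
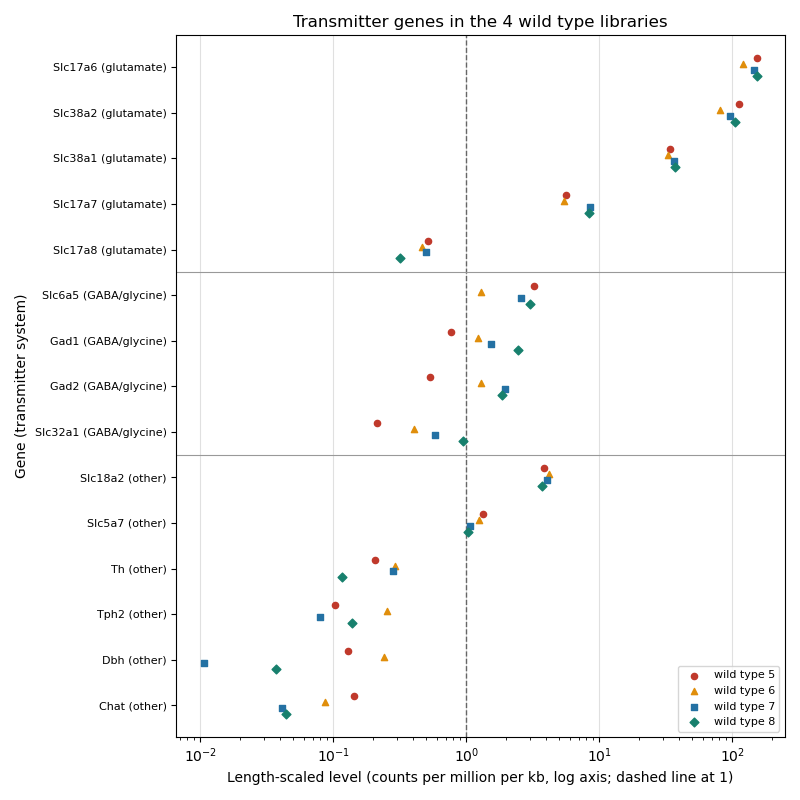
Length-scaled level (log axis) of the transmitter genes named in the text in each wild type library, grouped into glutamate, GABA and glycine, and other systems, with a dashed line at 1 unit. Slc17a6 lies above 100 units in every library, Slc32a1 lies below 1 unit in every library, and most genes of other systems lie below 1.

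Genes of other transmitters were low. Slc18a2, the vesicular monoamine transporter, was the highest of 12 at 3.87, 4.21, 4.04 and 3.72 units and was even across libraries. Slc5a7, the choline transporter, measured 1.35, 1.25, 1.06 and 1.03 units, but Chat, which makes acetylcholine, measured 0.144, 0.0861, 0.0409 and 0.0444 units from 15, 6, 4 and 5 reads. Th, Tph2 and Dbh, synthetic enzymes for catecholamines and serotonin, stayed low, with Th highest at 0.205, 0.290, 0.280 and 0.116 units.

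Among 23 neuropeptide genes, 9 passed 1 unit in all libraries and Nts stood apart. Nts, which encodes neurotensin, measured 113, 178, 60.5 and 84.7 units, highest in wild type 6 and lowest in wild type 7. Sst, which encodes somatostatin, measured 3.06, 7.74, 24.3 and 20.6 units, lowest in wild type 5 and highest in wild type 7, a range of 7.93 times. Cartpt measured 9.14, 10.7, 8.29 and 10.5 units and Adcyap1, which encodes the peptide PACAP, measured 3.36, 4.71, 7.73 and 5.57 units. Npy was at 0 in wild type 5, where 3 counts, the limit that a count of 0 allows, would be 0.143 units, and at most 0.57 units elsewhere.

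Genes known from unipolar brush cells, excitatory interneurons of the granule cell domain, passed 1 unit in 7 of 8 cases. Lmx1a, a roof plate and unipolar brush cell factor, measured 43.9, 26.0, 44.6 and 45.8 units and was lowest in wild type 6, as Eomes was. The calcium binding protein gene Calb2 measured 7.08, 7.08, 11.4 and 6.97 units. Grp was the member below the limit, at 1.00, 0.450, 1.95 and 0.534 units.

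Granule cell genes passed in 15 of 18 cases, and the 3 that did not mark the mature cell. Cbln1, a secreted synapse organiser, measured 67.6, 60.9, 101 and 87.5 units, Reln averaged 67.3 ± 11.1 units, and Cntn2, an adhesion molecule of granule axons, averaged 39.3 ± 5.82 units. Gabra6, the receptor subunit of mature granule cells, measured 0.108, 0.162, 0.266 and 0.0903 units, Cbln3 measured 0.309, 0.290, 0.304 and 0.196 units and Grin2c measured 0.220, 0.633, 0.223 and 0.273 units. Neurod1, Zic1, Zic2, Barhl1 and Pax6 are in this list as well as in that of the Atoh1 lineage, so the lists do not separate granule cells from other rhombic lip neurons.

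The chloride transporter gene Slc12a2 and the NMDA receptor gene Grin2b, known from immature neurons, exceeded their mature counterparts Slc12a5 and Grin2a. Slc12a2, the chloride importer, measured 14.2, 12.6, 13.1 and 12.4 units and Slc12a5, the exporter that rises as neurons mature, measured 0.850, 0.854, 1.72 and 1.14 units. Their ratio was 16.7, 14.8, 7.59 and 10.9, and with M21 lengths it was 10.4, 9.17, 4.70 and 6.74. Grin2b, the NMDA receptor subunit of young neurons, measured 5.94, 5.37, 10.3 and 7.12 units, and Grin2a, which replaces it later, measured 0.194, 0.282, 0.212 and 0.146 units. Grin2b exceeded Grin2a by 36.8 ± 14.6 times, or 124 ± 49.3 times with M21 lengths. Gria2, the subunit that keeps AMPA receptors from passing calcium, measured 42.8, 44.9, 78.5 and 58.4 units and exceeded the sum of Gria1, Gria3 and Gria4 by 10.2 ± 2.40 times. With M21 lengths the level of Gria2 was 25.1 units and this ratio 4.64 ± 1.09. Gria4, the subunit of fast auditory synapses, measured 1.95, 2.80, 3.77 and 3.27 units.

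Glycine receptor genes passed in 4 of 6 cases. The fetal subunit Glra2 measured 7.56, 9.41, 18.1 and 16.7 units and the adult subunit Glra1 measured 7.40, 4.88, 14.7 and 8.78 units, both highest in wild type 7. Gphn, the scaffold of inhibitory synapses, averaged 18.499 ± 2.21 units. Of 14 GABA receptor subunits 7 passed (50%), the same share as over all protein-coding genes.

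Among 30 voltage-gated potassium channel genes, 20 passed 1 unit in all libraries. Kcnd3, an A-type channel, led at 32.7, 26.0, 34.8 and 33.6 units. Kcnc1, which encodes the fast channel Kv3.1 of auditory neurons, measured 20.3, 18.2, 23.7 and 21.7 units. Kcna2 and Kcna1, low-threshold channels of mature bushy and octopus cells, were lower at 3.33, 2.91, 4.78 and 3.31 and 2.18, 1.75, 3.93 and 3.01 units. With M21 lengths their levels were 1.04 and 5.10, so their order depends on the length. Hcn2, a pacemaker channel gene, measured 0.980, 1.14, 0.999 and 0.774 units. Scn8a, which encodes the sodium channel Nav1.6, measured 12.8, 11.3, 12.4 and 10.8 units and exceeded Scn1a by 15.3 ± 2.27 times. Cacna2d1, a calcium channel subunit, was the highest channel gene of the lists at 171, 129, 164 and 154 units, with an M21 level of 93.5.

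Of 27 axon guidance genes, 25 (92.6%) were at or above 1 unit in every library, against 50% of all protein-coding genes. Unc5c and Dcc, receptors for netrin, measured 93.3, 66.3, 107 and 85.7 and 61.8, 58.9, 44.9 and 48.5 units, with M21 levels of 56.0 and 32.8. Draxin, a secreted repellent, averaged 75.4 ± 4.12 units. Robo3, the receptor that lets axons cross the midline, measured 3.45, 10.1, 8.03 and 1.89 units. Wild type 6 and 7 were high for Robo3, and wild type 8 lay at a log2 CPM difference of -1.68 from the mean of the others.

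Markers of other cell types differed widely in level. Radial glia and astrocyte genes were the most abundant, with 15 of 20 members at or above 1 unit and summed levels of 366, 508, 341 and 321 units. Vim, an intermediate filament gene of progenitors, measured 124, 186, 98.9 and 128 units, with an M21 level of 66.0, and Fabp7, a fatty acid binding protein gene of radial glia, measured 102, 145, 109 and 62.5 units. Sox2, the progenitor factor, measured 11.99, 23.4, 10.7 and 8.49 units, and Gfap, the astrocyte filament gene, measured 0.896, 1.43, 0.770 and 1.25 units. Of the 15 that passed, wild type 6 was the highest library for 9, against 27.3% of all detected genes.

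Oligodendrocyte lineage genes summed to 36.1, 38.7, 28.2 and 21.8 units, of which Olig2, which rhombic lip and hindbrain progenitors also use, gave 16.5, 15.5, 6.07 and 5.75. Sox10, the defining factor of that lineage, measured 0.517, 0.387, 0.519 and 0.304 units, and 6 of 15 members passed. Microglia genes summed to 19.3, 23.6, 16.8 and 12.9 units with 3 of 17 passing. Their defining gene Cx3cr1 measured 0.325, 0.787, 0.523 and 0.0867 units. Endothelial genes summed to 8.56, 9.72, 5.81 and 4.76 units with 1 of 12 passing, which was the glucose transporter gene Slc2a1. Cldn5, the tight junction gene of brain vessels, measured 0.324, 0.913, 0.549 and 0.141 units, and Ly6c1 was at 0 in all 4, where 3 counts would be at most 0.14 units.

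No mural cell gene of 10 passed, and the list summed to 7.15, 8.41, 9.70 and 5.26 units. Fibroblast genes summed to 7.50, 8.54, 7.28 and 4.50 units with 1 of 12 passing, and Col1a1 measured 0.337, 0.295, 0.0964 and 0.0609 units. Erythroid genes summed to 3.80, 4.76, 6.86 and 2.77 units with 1 of 10 passing. Hba-a1 and Hba-a2, near-identical globin genes, were at 0 in all 4, but reads shared by both copies may not have been counted. Schwann cell genes summed to 14.0, 12.7, 9.28 and 9.58 units with 3 of 9 passing.

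Without Otx2, the choroid plexus and ependyma list summed to 10.4, 6.94, 8.09 and 7.43 units. Ttr, the main choroid plexus transcript, measured 3.19, 0.860, 0.307 and 0.307 units, highest in wild type 5 as Otx2 was. Hair cell genes, of interest because hair cells also express Atoh1, summed to 6.76, 7.75, 9.23 and 6.02 units with 1 of 12 passing. Their factor Pou4f3 was at 0 in wild type 6 and 8 and rested on 5 and 3 reads in wild type 5 and 7. Purkinje cell genes summed to 17.2, 24.9, 16.1 and 17.2 units with 4 of 10 passing. Of these sums, Lhx1 gave 8.07, 15.5, 8.38 and 7.97 units. Calb1, a defining Purkinje cell gene, was not among those that passed, at 0.0557, 0.225, 0.125 and 0.0773 units. In 5 of these lists, radial glia and astrocyte, microglia, endothelial, fibroblast and oligodendrocyte, wild type 8 had the lowest sum and wild type 6 the highest. Except in the radial glia list, most members lay below the limit of 1 unit in some library. Over all 19921 such genes with a count, wild type 6 was highest in 45.4% and wild type 8 in 8.91%. Wild type 6 was thus often the highest library among low genes of any kind. The sums also hold members above the limit, and the cause of the order was not tested.

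**Figure D3:**
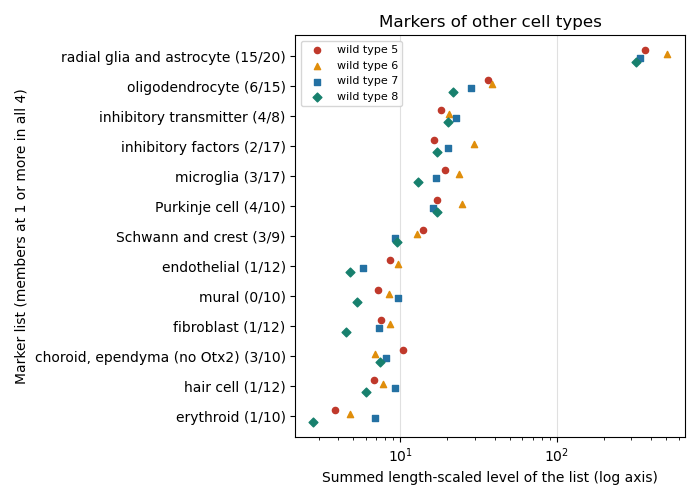
Summed length-scaled level (log axis) of marker lists of other cell types in each wild type library, with the number of members at or above 1 unit in all 4 libraries beside each name. The radial glia and astrocyte list is the highest of those drawn, with Otx2 left out of the choroid plexus and ependyma list, and wild type 8 is lowest in the endothelial, mural, fibroblast and erythroid lists.

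The 4 libraries were alike for most genes. With edgeR, the biological coefficient of variation was 19.8%. Among 11738 genes with a mean of at least 5 CPM, the median SD of log2 CPM was 0.18, and the 10th and 90th percentiles were 0.08 and 0.40. Pearson correlations of log2 CPM across these genes ran from 0.957 between wild type 6 and 7 to 0.984 between wild type 7 and 8. Genes are not independent replicates, so these describe the pairs only. No pair agreed within sampling noise, since the chi-square per gene was at least 41.0. A principal component analysis put 62.6% of the variance on a component with scores of 15.4, 25.6, -23.6 and -17.4.

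Sex-linked genes were the most uneven, in pools that the labels do not separate by sex. Xist, the transcript of the inactive X chromosome, measured 16.3, 48.1, 192 and 195 units. Eif2s3y, on the Y chromosome, measured 29.3, 20.7, 6.44 and 0 units, and Ddx3y measured 18.7, 14.0, 2.98 and 0.0323 units. In wild type 8, Eif2s3y had 0 reads, which allows up to 0.018 units by the limit of 3 counts, and Ddx3y had 6. Kdm5d and Uty, also Y-linked, measured 8.72, 7.59, 2.06 and 0.00913 and 10.6, 6.98, 1.76 and 0.0292 units. The order of the libraries was the same in all 4 Y-linked genes, highest in wild type 5 and lowest in wild type 8. Tsix is antisense to Xist and shares its reads where strand is not kept.

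Cell division genes were the next most uneven group. Genes of the G2 and M phases, which drive chromosome condensation, spindle assembly and exit from mitosis, summed to 391.7, 385, 99.3 and 148 units. All 20 members passed 1 unit in every library, and wild type 7 was the lowest library in 20 of 20. Over all 13725 detected genes, wild type 7 was lowest in 31.4%. Ccnb1, the cyclin that starts mitosis, measured 18.51, 20.6, 3.21 and 5.65 units. Top2a, the topoisomerase that untangles chromosomes, measured 26.5, 23.9, 4.78 and 8.73 units. Mki67, the proliferation antigen Ki-67, measured 49.1, 46.7, 14.1 and 18.3 units. Kif11, a spindle motor, measured 19.1, 22.6, 3.80 and 6.81 units, and Cdk1, the mitotic kinase, measured 18.3, 16.8, 3.62 and 6.41 units. In these 5 genes, wild type 5 and 6 lay close together and both exceeded wild type 8, which exceeded wild type 7. The median ratio of the highest to the lowest library was 4.43 over the 20 genes, against 1.33 over all detected genes.

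Genes that act in mitosis share promoter elements, and the promoters of 4 of the genes just named are shown for that reason. The cell cycle genes homology region, or CHR, is bound by the complexes that repress and activate G2 and M genes, and the CCAAT box often lies close to it. Each sequence runs from 100 bases before to 20 bases after the start, as RefSeq gives it on GRCm38.p6, and capitals mark CHR letters (TTTGAA or TTTAAA on either strand, so also TTCAAA) and CCAAT letters (CCAAT or ATTGG). The windows lie at chr13:100786467-100786586 on the minus strand for Ccnb1, chr10:69352893-69353012 minus for Cdk1, chr11:99024170-99024289 minus for Top2a and chr19:37376282-37376401 plus for Kif11.
Ccnb1: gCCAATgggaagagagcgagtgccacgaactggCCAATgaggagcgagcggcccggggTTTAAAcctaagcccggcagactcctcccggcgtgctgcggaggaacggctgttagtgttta
Cdk1: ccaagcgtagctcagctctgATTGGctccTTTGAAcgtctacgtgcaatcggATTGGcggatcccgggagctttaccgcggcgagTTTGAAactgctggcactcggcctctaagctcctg
Top2a: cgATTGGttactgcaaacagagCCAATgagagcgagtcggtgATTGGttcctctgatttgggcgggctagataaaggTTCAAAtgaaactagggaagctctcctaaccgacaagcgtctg
Kif11: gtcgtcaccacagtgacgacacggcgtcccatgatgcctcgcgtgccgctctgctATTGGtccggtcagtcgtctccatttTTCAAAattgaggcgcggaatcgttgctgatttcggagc
All 4 windows hold both elements. RefSeq windows were found for 16 of the 20 listed genes, and not for Aurkb, Ccna2, Kif20a and Tpx2. Of these 16 windows, 11 (68.8%) held a CHR match, 12 (75%) a CCAAT match and 10 (62.5%) both. Among all 32851 windows of the same length, 11.1% held a CHR match, 20.9% a CCAAT match and 2.25% both. A match of letters is a description of sequence and does not show that a factor bound there.

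The S phase list had a smaller range, with sums of 260.4, 278, 137 and 192 units, and was highest in wild type 6 rather than wild type 5. Wild type 7 was lowest in 15 of 15 genes, and the median ratio of highest to lowest library was 2.07. Pcna, the replication clamp, measured 50.9, 64.4, 27.8 and 40.6 units, and Rrm2, which supplies nucleotides for replication, measured 31.1, 34.0, 10.1 and 18.8 units. In the S phase genes, 3 of 14 promoter windows held a CHR match and 9 held a CCAAT match.

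Immediate early genes, which respond within minutes to stimulation or stress, summed to 210.3, 282, 135 and 159 units. All 9 detected members were highest in wild type 6, against 27.3% of all detected genes. Fos measured 15.3, 38.2, 11.6 and 13.7 units, Egr1 measured 28.7, 40.9, 20.8 and 17.9 units and Fosb measured 1.25, 4.56, 0.728 and 1.01 units.

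Genes of mature neurons were highest where cell division genes were lowest, and young neuron genes leaned the same way. Wild type 7 was the highest library in 9 of 12 detected mature neuron genes and 16 of 18 detected vesicle genes, against 24.0% of all detected genes. Wild type 7 and 8 both exceeded wild type 5 and 6 in 16 of 20 young neuron genes (80%). That share was 66.7% of detected mature neuron genes, 61.1% of detected vesicle genes and 18.8% of all detected genes. Syt1, a calcium sensor of vesicle release, measured 18.1, 17.2, 29.1 and 21.7 units, and Nefm, a neurofilament gene, measured 7.57, 7.08, 14.2 and 12.3 units. The shares of counts taken by mitochondrial genes and by Gm42418 did not follow this order. Y-linked genes were also high in wild type 5 and 6 and low in wild type 7 and 8, so the sex makeup of a pool and its cell division level cannot be told apart in these 4 libraries.

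**Figure D4:**
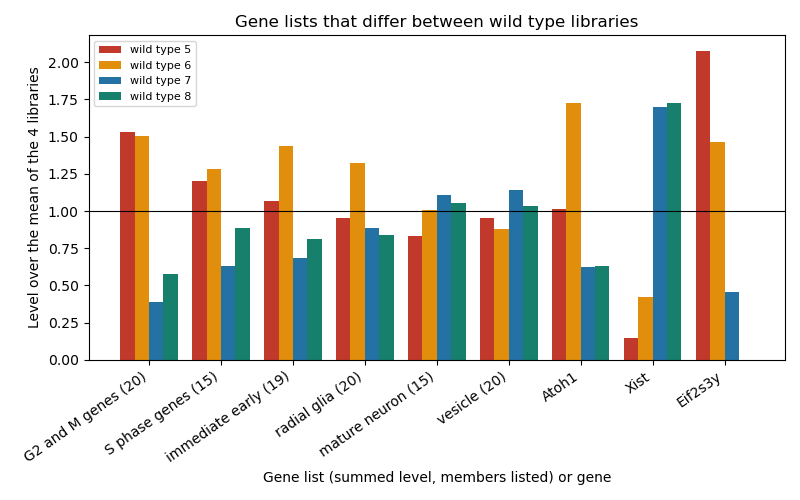
Level in each wild type library over the mean of the 4 libraries, for summed gene lists and for Atoh1, Xist and Eif2s3y, with 1 bar per library and a line at 1. Cell division genes and Atoh1 are low in wild type 7 and 8, vesicle genes are highest in wild type 7, and Eif2s3y has no bar in wild type 8 because its count is 0.

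Genes were ranked by the SD of their log2 CPM above the trend for their level. The 25 most spread genes held the 4 Y-linked genes, Xist and Tsix, 6 genes with a provisional name, and Snhg11, Sst, Depdc1a, Gtse1, Ccnb1, Fam83d, Kif14, Hmmr, Plk1, Pif1, Kif11, Kif18a and Kif18b. Of these, Depdc1a and those after it are known from cell division or genome maintenance. Snhg11, a long non-coding RNA of neurons, measured 1.88, 2.88, 11.7 and 10.0 units. The 200 most spread genes, 1.7% of those ranked, held 18 of the 20 G2 and M genes (90%) and 9 of 299 ranked transcription factors (3.01%). In 136 of the 200 (68.0%), wild type 5 and 6 alone lay above the gene's mean, against 11.3% of all 11738 ranked genes.

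Single libraries stood apart in further genes. Wild type 6 was farthest above the others for Fosb, Chodl and Sfrp1, a Wnt inhibitor gene, and farthest below for Tmem132d and Sulf1. Sfrp1 measured 2.00, 7.98, 2.24 and 1.84 units and Chodl measured 1.26, 4.86, 0.843 and 1.36 units. Wild type 5 was farthest below the others for Lamp5, at 0.552, 1.22, 3.16 and 3.02 units, besides Xist, Tsix, Sst and Snhg11. Wild type 7 was farthest below for Fam83d, Gtse1, Ccnb1, Aurka and Esco2, all of cell division. Wild type 8 was farthest below for the 4 Y-linked genes and Robo3.

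**Figure D5:**
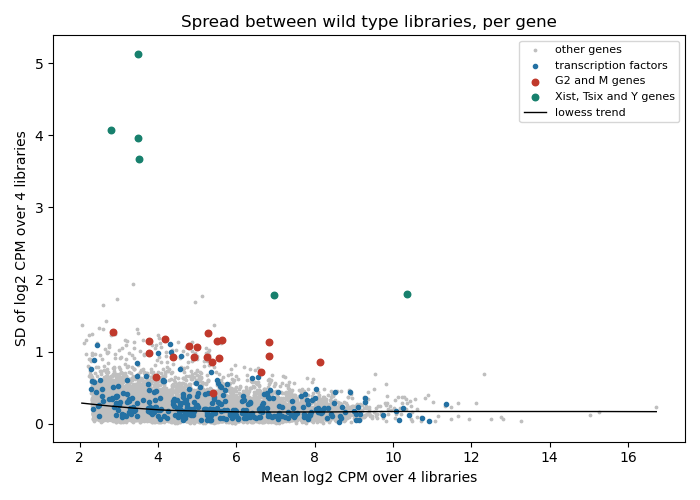
SD of log2 CPM over the 4 wild type libraries against mean log2 CPM, with 1 point per gene for the 11738 genes with a mean of at least 5 CPM and the lowess trend as a line. Y-linked genes, Xist and Tsix stand at the top, G2 and M genes lie above the trend near 1, and transcription factors lie mostly along it.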

How the data were processed

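RNA-seq libraries of the 4 wild type samples were analysed. Per the labels' protocols, input was 2 ng of RNA, the TotalScript kit primed it with random and poly-A primers, PCR ran for 14 cycles, and the pool was read on 3 HiSeq2500 lanes. The authors deposited raw read counts per Ensembl gene with a gene length. The submitters' processing notes name mm10 as the build and bcl2fastq 1.8.4. Aligner, counter, strand setting and annotation release are not given in the sources used here. Of 39017 genes, 37607 had a symbol, and positions are those of GENCODE M21. Of the 180 named genes, 45 overlap another annotated gene, so their levels may include or miss shared reads. Column headings show the group and a running number but not the title's replicate.

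Counts were scaled by library total and length in Python 3.11.15. A gene was taken as detected at 1 unit in all 4 libraries. Dispersion was estimated with edgeR 4.0.16 (TMM, filterByExpr, robust) in R 4.3.3 and tested on simulated data. DESeq2 1.42.0 size factors, TPM and other settings were alternatives. No group was compared with another.

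Gene lists (46) and members were chosen with earlier results of these data known. The rule named the 4 markers, the 30 most abundant genes, the 30 most abundant transcription factors, members of identity lists, up to 6 leading members of other lists and those at 0, and the 25 most spread genes. Cdk1, Cx3cr1, Dcx, Elavl3, Elavl4, Emx1, En1, Gapdh, Gfap, Kcna1, Kcna2, Nefm, Pou4f3 and Scn1a fall outside it and were chosen after their values were seen. Some genes that the rule names are not reported here.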

Additional observations from a re-analysis of the deposited data

Results flagged for a closer look

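Among 180 named genes and 50 list sums and library measures, 15 had a library that stood apart from the other 3. The gap to the nearest library, divided by the range of the 4, exceeded Dixon's critical value at 95% in each. For independent items chosen without regard to their values, chance gives about 1 in 20 such gaps, or 11.5 of 230. Some genes here, Fosb, Chodl and Sfrp1 among them, were named because 1 library stood apart, and lists share genes. How many of the 15 arose by chance therefore cannot be told. Units are those of the report, and no cause was tested.

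Wild type 6 stood apart in most of these. It was above the others for the immediate early genes Fos, at 38.2 units with the nearest library at 15.3, and Fosb, at 4.56 with the nearest at 1.252. Sfrp1 measured 7.98 units there and at most 2.24 elsewhere, and Chodl measured 4.86 units and at most 1.36 elsewhere. Id2, an inhibitor of helix-loop-helix factors, measured 140.9 units there and at most 81.4 elsewhere. Lhx1 measured 15.5 units there and at most 8.38 elsewhere, and the summed level of the Purkinje cell list, which Lhx1 leads, was 24.9 there and at most 17.2 elsewhere. Hoxb2 measured 13.8 units there and at most 11.3 elsewhere, and Grin2c 0.633 there and at most 0.273 elsewhere. For Lmx1a it was the low library, at 25.95 units against at least 43.9.

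In wild type 5, Gria1 was low at 0.192 units and Lbx1 at 0.218 units, while Lhx9 was high at 1.49 units. In wild type 7, Calb2 was high at 11.4 units with the nearest library at 7.08. In wild type 8, Cbln3 was low at 0.196 units.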

How the results depend on the processing

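Most counts and levels kept their value under other settings. The number of genes at or above 1 unit in all 4 libraries became 7853 at 5 units. It stayed within 1.5 times under 0.5 unit, 10 counts, TPM, TMM, DESeq2 size factors and M21 lengths. It also did with a total without mitochondrial genes and loci that overlap ribosomal RNA, such as Gm42418. The share of the 10 leading genes fell to 15.5% without mitochondrial genes. Without the loci that overlap ribosomal RNA as well, it fell to 3.78%, a setting chosen after seeing the data. Members at or above 1 unit changed by over 1.5 times only in short or low lists. At 0.5 unit the counts were 5 for inhibitory factors, 2 for chloride transporters, 2 for endothelial, 4 for mural, 2 for fibroblast, 2 for hair cell and 14 for immediate early genes. With TPM, which raises all levels, they were 5, 2, 2, 5, 2, 2 and 14, and 2 for erythroid genes. When 1 library was left out, they ranged from 2 to 4 for inhibitory factors, 1 to 2 for endothelial, 0 to 1 for mural, 1 to 2 for fibroblast, 1 to 2 for hair cell and 2 to 6 for sex-linked genes. The biological coefficient of variation was 24.2% without the filter on low counts and 18.53% to 21.2% when 1 library was left out. Of the 25 most spread genes, 13 were shared when genes from 1 CPM were ranked, 13 when ranked by edgeR dispersion and 18 to 20 when 1 library was left out. The ratio of vesicular transporters ranged from 249 to 444 when 1 library was left out. All 20 G2 and M genes kept wild type 5 and 6 above wild type 7 and 8 with TMM. They also did without counts of mitochondrial genes and of the loci that overlap ribosomal RNA. No paired analysis was possible because the columns carry no replicate number and no groups were compared. Levels that rest on few reads, such as Slc32a1, Chat and Hoxb1, are limited by depth, and intervals cover counting error only.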

Other observations

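Genes for neurotrophins, related factors and their receptors passed 1 unit in every library in 7 of 13 cases (53.8%), near the 50% of all protein-coding genes. Gfra1, a co-receptor for the GDNF family, measured 18.499, 19.4, 10.3 and 17.4 units, lowest in wild type 7. Ntrk2, which encodes the BDNF receptor TrkB, measured 10.9, 8.84, 15.1 and 11.6 units, and Ntrk3, which encodes TrkC, measured 5.20, 7.30, 5.11 and 4.24 units, with an M21 level of 0.949. The ligand gene Ntf3, which encodes neurotrophin 3, measured 3.01, 3.42, 5.86 and 5.63 units, with both wild type 7 and 8 above wild type 5 and 6.

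Of 12 potassium leak and inward rectifier genes, 7 passed. Kcnk9, the leak channel TASK-3 of granule neurons, measured 30.7, 26.0, 36.5 and 27.7 units, with an M21 level of 2.97. Kcnj3, a channel opened by G proteins, measured 17.5, 14.7, 26.9 and 23.1 units and was highest in wild type 7. Among metabotropic glutamate receptors, 5 of 8 passed, with Grm5 at 2.29, 2.10, 3.36 and 2.97 units.

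Markers of the spiral ganglion, the peripheral auditory neurons that project to the cochlear nucleus, were split. Tubb3, a tubulin of all neurons, led the list at 235, 226, 274 and 287 units and Prox1 measured 6.13, 7.40, 5.54 and 4.11 units. Without Tubb3 the other 9 genes summed to 29.2, 30.8, 36.5 and 28.8 units.

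Genes of glycolysis and the hypoxia response passed in 8 of 13 cases. Ldha, lactate dehydrogenase, measured 118, 128, 67.5 and 106 units and was lowest in wild type 7. Vegfa, a hypoxia-induced growth factor of vessels, measured 11.3, 13.2, 9.47 and 11.3 units.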
